A study of Mus musculus with 6 samples.

Results

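Small nucleolar RNAs (snoRNAs), small nuclear RNAs (snRNAs), the RNAs of the Cajal body and the Snhg genes that carry snoRNAs in their introns were measured in bone marrow cells of mice with leukemia. Members were all genes whose symbol began with Snord, Snora, Scarna, Rnu or Snhg, together with Rn7sk, Rmrp and Rpph1. Of 22180 genes measured by a probe set that names a single gene, 99 were members. They comprised 48 C/D box genes, 26 H/ACA box genes, 5 Cajal body RNA genes, 3 spliceosomal snRNA genes, 15 Snhg host genes, and the genes of 7SK RNA (Rn7sk) and RNase P RNA (Rpph1). Rmrp, the RNA of RNase MRP, was measured only by probe sets that also name another gene. The imprinted clusters Snord113, Snord114, Snord115 and Snord116 had no probe set of a single gene, and Snhg14 is a host among the members, while the host Rian was measured as a gene of a list described further on.

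The RNA came from sorted bone marrow cells of mice with chronic myeloid leukemia (CML) or acute myeloid leukemia (AML), with 3 arrays per leukemia. The labels call the cells osteoblastic, and the sample titles call them stromal cells. All 6 samples carried the genotype Col2.3 GFP, a reporter that places green fluorescent protein under part of the Col1a1 promoter and so marks bone-forming cells. The groups follow the sample titles, while the field for the source lists CML in all 6, so every direction rests on the titles. How either leukemia was induced, the age of the mice and the number of animals behind a sample are not given in the sources used here, and no sample came from mice without leukemia. Since the labels do not state whether each sample is a different mouse, the p-values speak only for the spread among these samples, which may be technical.

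C/D box snoRNAs guide the methylation of ribosomal RNA, and H/ACA box snoRNAs guide its pseudouridylation. A few of them, such as U3, U8 and U17, instead take part in cutting the ribosomal precursor. Most are cut out of the introns of a host gene, whereas U3, U8, U13, 7SK and RNase P RNA have promoters of their own. Cajal body RNAs guide the same modifications on the snRNAs that build the spliceosome. An array probe cannot tell a mature small RNA from its precursor or from the unspliced intron that holds it. By the gene table, the 84 small RNAs (all members except the Snhg genes) were 48 to 332 bases long, with a median of 87.5.

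The samples differed in the genes of other cell types. The mean log2 level of 12 osteoblast markers ran from 6.43 to 8.93 on the CML arrays and from 5.82 to 7.19 on the AML arrays, and all 12 were lower in AML by value, with 0 past the threshold in limma and 1 at an unadjusted p under 0.05. The mean of 12 pan-haematopoietic markers ran from 6.64 to 8.12 on CML and from 8.50 to 9.31 on AML, with 3 of 12 called higher. The mean of 6 primary granule markers ran from 6.59 to 7.19 on CML and from 9.51 to 10.71 on AML, with 6 of 6 called higher, and 2 of 6 macrophage markers were also called higher. The mean of 5 neuron markers, a type that should be absent, ran from 4.61 to 4.88 on CML and from 3.89 to 4.12 on AML, with 0 calls in limma and 1 gene, Tubb3 (-2.87), at an unadjusted p under 0.05. The erythroid gene Slc4a1 read 4.89 on AML 1 and between 8.68 and 11.16 on the other arrays. The groups did not overlap in the granule, pan-haematopoietic, macrophage and neuron means, although among the neuron genes they were apart only for Tubb3. Any gene that differed between the leukemias thus moved along with these means, and their part in the results was not tested. In such mixed samples, fewer cells of a type and less RNA per cell cannot be told apart. Median intensity ran from 17.2 to 20.4 over the 6 arrays, and the number of arrays limits the precision.

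Among the 99 genes, Snord13 was higher in AML and Rnu3a and Snora44 were lower, and none of the others passed an adjusted p of 0.05 in limma. The calls made up 3.03% of the members, beside 1.91% of all 22180 genes. By direction, 1 of 99 was called higher beside 1.83% of all genes, and 2 of 99 were called lower beside 0.0812% of all genes. At an unadjusted p under 0.05, 17 members passed (17.2%, beside 21.5% of all genes), 6 of them higher and 11 lower. The groups did not overlap for 15 members (15.2%, beside 31.3% of all genes), 6 of them higher in AML, beside 13.3% of all genes, and 9 lower, beside 17.9%. By value 47 members were higher and 52 lower in AML, with a median log2 change of -0.04 beside -0.11 over all genes. After median centring these medians were 0.11 and 0.04, and after cyclic loess -0.11 and -0.0071, so no direction is given for the members as a whole.

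**Figure D1:**
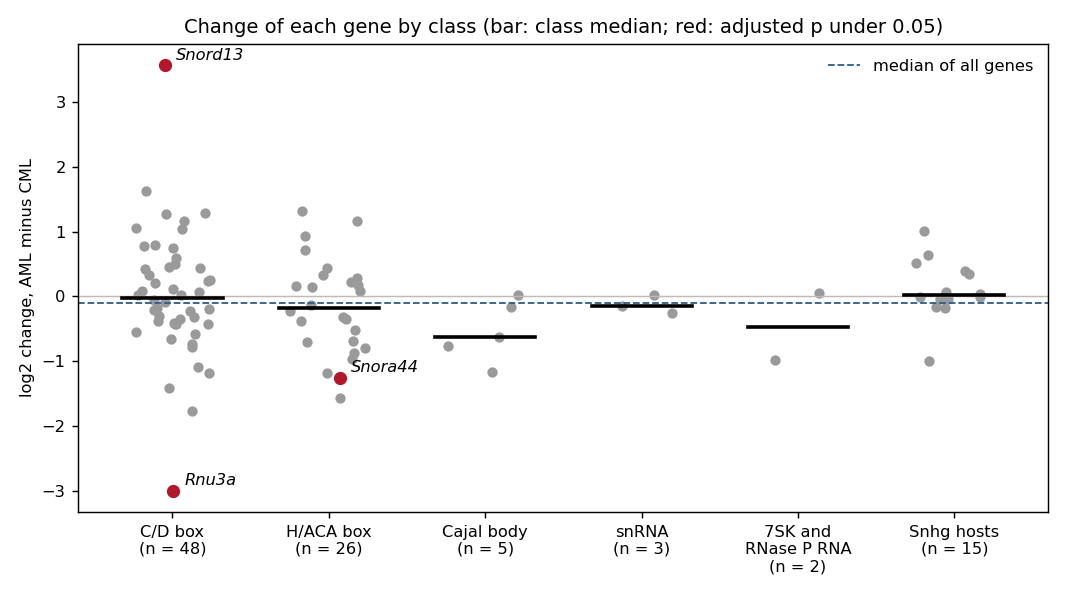
Log2 change (AML minus CML) of each of the 99 genes, 1 point per gene, by class; bars are class medians, the dashed line is the median of all genes and red points passed an adjusted p of 0.05 in limma. Snord13 at 3.57 and Rnu3a at -3.0 lie outside the range of -1.77 to 1.63 held by the other C/D box genes.

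Snord13 encodes U13, a C/D box snoRNA that is known to act in the acetylation of the small-subunit ribosomal RNA. Its log2 intensities were 5.59, 7.08 and 6.70 on CML arrays 1 to 3, against 10.06, 9.87 and 10.14 on AML arrays 1 to 3. All AML arrays lay above all CML arrays, and the AML arrays were much closer together (SD 0.14) than the CML arrays (SD 0.77). Snord13 was 11.8-fold higher in AML, a log2 change of 3.57 ± 0.37 (SE, n = 3 per group) with a 95% interval of 2.68 to 4.46 and an adjusted p of 0.0203 in limma. The call held in limma without CML 1 (3.13, adjusted p = 0.0309), CML 2 (3.88, adjusted p = 0.0316) or AML 3 (3.51, adjusted p = 0.0412). It was lost without CML 3 (3.69, adjusted p = 0.0759), AML 1 (3.55, adjusted p = 0.1) or AML 2 (3.64, adjusted p = 0.124). Leaving out any of those last 3 arrays left 0 genes of the whole table past the threshold in limma, with 15, 15 and 18 members at an unadjusted p under 0.05.

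Rnu3a encodes U3, the C/D box snoRNA that is needed for the early cuts that release the small-subunit ribosomal RNA. Its log2 intensities were 11.39, 12.55 and 12.53 on CML arrays 1 to 3, against 8.48, 9.69 and 9.31 on AML arrays 1 to 3. The groups did not overlap, and both held their lowest value on array 1. Rnu3a fell by 3.0 ± 0.43 (SE) on the log2 scale, 7.99-fold, with an adjusted p of 0.0325 in limma. In limma it passed without CML 1 (-3.38, adjusted p = 0.0374) and not without CML 2 (-2.80, adjusted p = 0.0537), CML 3 (-2.81, adjusted p = 0.0991), AML 1 (-2.66, adjusted p = 0.123), AML 2 (-3.26, adjusted p = 0.125) or AML 3 (-3.07, adjusted p = 0.0677). After cyclic loess scaling the change was -3.28 with an adjusted p of 0.0525.

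The other U3 genes, Rnu3b1 to Rnu3b4, are near-identical copies of Rnu3a, so that the probe sets may share signal. They were measured by 4 probe sets that hold identical values and name all of them together. These read 10.86, 11.47 and 11.91 on CML arrays 1 to 3, against 10.49, 10.53 and 10.35 on AML arrays 1 to 3. The groups did not overlap, and the difference of -0.96 ± 0.27 did not pass in limma over all 39721 probe sets (adjusted p = 0.174). The U3-type probe sets thus had the sign of Rnu3a with a smaller difference, and the gap between them was not tested.

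Snord118 encodes U8, which acts in the processing of the large-subunit ribosomal RNAs. It read 6.83, 5.96 and 5.82 on CML arrays 1 to 3, against 7.76, 7.49 and 7.18 on AML arrays 1 to 3. The groups did not overlap, and the difference of 1.27 ± 0.30 did not pass in limma (adjusted p = 0.0917), although it did without CML 1 (1.58, adjusted p = 0.04). Of the 3 C/D box snoRNAs with promoters of their own that are known for tasks other than guiding methylation, U13 was thus higher, U3 lower, and U8 higher by value without passing.

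Among C/D box genes inside other genes, Snord35b had the lowest p of those higher by value, and it was dim. It read 2.93, 3.20 and 3.26 on CML, against 3.94, 4.11 and 3.69 on AML, a difference of 0.78 ± 0.17 (adjusted p = 0.0763 in limma). Snord83b, in Rpl3, read 7.77, 7.21 and 7.05 on CML, against 6.47, 5.20 and 6.12 on AML, a difference of -1.41 ± 0.36 (adjusted p = 0.108 in limma). Snord53, in Wdr43, read 7.01, 7.76 and 6.53 on CML, against 5.84, 5.53 and 6.38 on AML, a difference of -1.18 ± 0.36 (adjusted p = 0.145 in limma). In all these genes the groups did not overlap and none passed. Snord22, the U22 RNA needed for small-subunit ribosomal RNA, differed by -0.58 ± 0.26 with overlapping groups. Of the 48 C/D box genes 24 were higher and 24 lower by value, with a median change of -0.02 that became 0.13 after median centring.

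Snora44, an H/ACA box snoRNA in an intron of Snhg12, read 7.98, 8.55 and 8.33 on CML arrays 1 to 3, against 6.79, 6.97 and 7.34 on AML arrays 1 to 3. Every AML array lay below every CML array, and the spread was alike in both groups (SD 0.29 and 0.28). Snora44 fell by 1.25 ± 0.22 (SE) on the log2 scale, 2.38-fold, with an adjusted p of 0.0477 in limma. In limma it passed without CML 1 (-1.41, adjusted p = 0.0457) and not without CML 2 (-1.12, adjusted p = 0.0676), CML 3 (-1.23, adjusted p = 0.135), AML 1 (-1.13, adjusted p = 0.186), AML 2 (-1.22, adjusted p = 0.182) or AML 3 (-1.41, adjusted p = 0.0594). With the trend and robust options of eBayes, its adjusted p in limma was 0.081.

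Snora75, the U23 RNA in an intron of the nucleolin gene Ncl, read 9.25, 8.41 and 9.30 on CML, against 7.80, 7.77 and 7.82 on AML. The AML arrays were nearly equal (SD 0.02) and lay below all CML arrays, with a difference of -1.19 ± 0.26 that did not pass in limma (adjusted p = 0.0743). It passed without CML 2 (-1.48, adjusted p = 0.0328) and with array weights (-1.24, adjusted p = 0.0415). Snora68 differed by -0.71 ± 0.19 (adjusted p = 0.114 in limma) and Snora21, in Rpl23, by 0.94 ± 0.31 (adjusted p = 0.169 in limma), both without overlap of the groups.

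Snora73a and Snora73b, the copies of U17 that act in cutting the small-subunit precursor, differed by -0.69 ± 0.56 and -0.80 ± 0.71. Their groups overlapped: Snora73b read 7.92, 7.44 and 6.71 on CML, against 6.08, 5.42 and 8.18 on AML, so that AML 3 held the highest value of the 6. Snora31 (1.16 ± 0.87) and Snora74a (1.32 ± 0.71) were higher by value with overlapping groups. Snora31 differed by 0.15 without CML 3, and Snora74a by 0.65 without AML 2 and 2.08 without AML 1. Of the 26 H/ACA box genes 12 were higher and 14 lower by value, with a median change of -0.18 that lay between -0.14 and -0.03 under the other scalings.

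**Figure D2:**
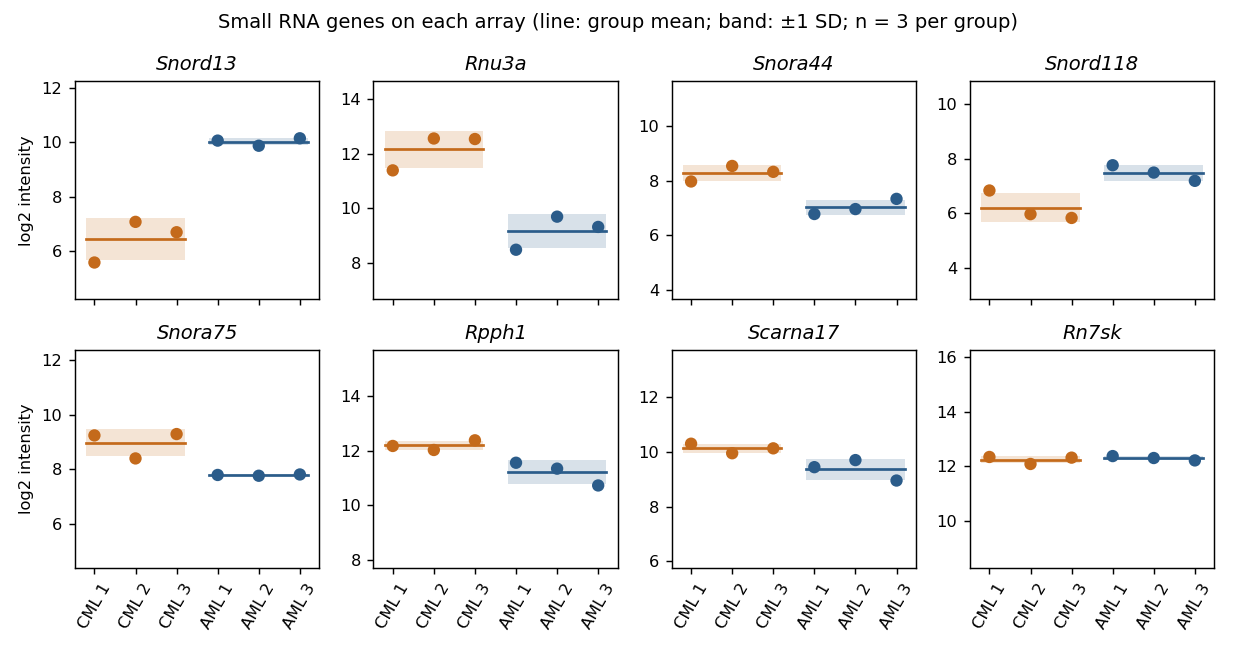
Log2 intensity of 8 small RNA genes on each array, 1 point per array, with the group mean as a line and ± 1 SD as a band (n = 3 per group); every panel spans the same number of log2 units. The groups are apart in every gene shown except Rn7sk, where CML and AML arrays all lie between 12.09 and 12.38.

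Of the 5 Cajal body RNA genes, 4 were lower in AML by value, 0 passed in limma and 1 had an unadjusted p under 0.05. Their median change was -0.63, and it lay between -0.98 and -0.48 under the other scalings. Scarna17, which guides modification of spliceosomal RNAs, read 10.31, 9.96 and 10.14 on CML, against 9.45, 9.71 and 8.96 on AML, without overlap. Its difference was -0.76 ± 0.22 (adjusted p = 0.137 in limma), and a second probe set for the gene gave -0.98. Scarna2, a Cajal body RNA with a promoter of its own, read 8.12, 7.53 and 8.15 on CML, against 6.85, 7.64 and 7.41 on AML, a difference of -0.63 ± 0.27 with overlap. Scarna10, the U85 RNA, which guides both kinds of modification on U5 snRNA, differed by -1.17 ± 0.54, and Scarna6 by 0.02 ± 0.58.

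Of the snRNAs of the spliceosome, Rnu11 and Rnu12 belong to the minor spliceosome, which removes a rare class of introns, and Rnu5g is a U5 gene. Rnu12 differed by 0.02 ± 0.15 (95% interval -0.34 to 0.37) and Rnu11 by -0.25 ± 0.29 (95% interval -0.94 to 0.44). Rnu5g was dim, with group means of 2.26 on CML and 2.11 on AML. The sign of Rnu12 turned under quantile scaling (-0.25) and cyclic loess (-0.32), and that of Rnu5g under median centring (0.0065), so no direction is given for either. The U1 genes were measured only by probe sets that name several of them. One such set of 9 probe sets with identical values read 5.28, 8.50 and 8.42 on CML, against 5.98, 5.18 and 4.86 on AML, where CML 1 lay with the AML arrays (-2.06 ± 0.90, adjusted p = 0.285 in limma over all probe sets).

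Rpph1, the RNA of RNase P, which trims the leading end of transfer RNA precursors, read 12.17, 12.03 and 12.38 on CML, against 11.56, 11.34 and 10.73 on AML. The groups did not overlap, and the difference of -0.98 ± 0.24 did not pass in limma (adjusted p = 0.0994). Rn7sk, the RNA that holds the elongation factor P-TEFb inactive, read 12.35, 12.09 and 12.32 on CML, against 12.38, 12.31 and 12.22 on AML. Its difference of 0.05 ± 0.14 had a 95% interval of -0.29 to 0.39, and it was 0.10 in a second probe set and -0.15 after cyclic loess. A probe set that names Rmrp and Ccdc107 differed by -1.47 ± 0.52 and another by -0.16 ± 0.21, and neither passed in limma over all probe sets (adjusted p = 0.23 and 0.68).

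The 15 Snhg host genes had 0 calls in limma, and 0 had an unadjusted p under 0.05. Their changes ran from -0.998 to 1.02 with a median of 0.03, which was -0.09 after quantile scaling and 0.18 after median centring. Snhg6 read 7.70, 9.68 and 8.85 on CML, against 10.13, 9.11 and 10.04 on AML, a difference of 1.02 ± 0.53 (adjusted p = 0.297). Snhg18, which was dim, stood at 6.48 on CML 3 and between 3.37 and 4.22 on the other 5 arrays, so its difference of -0.998 ± 0.71 was -0.14 without CML 3. Snhg1, the host with U22, differed by 0.04 ± 0.31 (95% interval -0.70 to 0.78), and Snhg5 by -0.04 ± 0.41. Snhg11 and Snhg14 differed by -0.005 ± 0.41 and 0.03 ± 0.13, and Snhg14 was dim.

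Many snoRNA hosts belong to the genes with a run of pyrimidines at the transcription start, which ties their translation to growth signals. Start sequences were taken from RefSeq (GRCm38.p6) for 13 of the 15 Snhg genes, and 4 are shown because they hold or lack the motifs searched and host, for Snhg12, Snhg1 and Snhg3, members described here. Each runs from 50 bases before the listed start through the first 50 bases transcribed, in the gene's own direction. Capitals mark TATAA in the first 50 bases, and a run of at least 6 C or T that touches the window from 5 bases before to 10 bases after the start.
Snhg12: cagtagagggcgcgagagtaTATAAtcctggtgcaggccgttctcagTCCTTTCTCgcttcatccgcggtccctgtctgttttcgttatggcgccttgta
Snhg5: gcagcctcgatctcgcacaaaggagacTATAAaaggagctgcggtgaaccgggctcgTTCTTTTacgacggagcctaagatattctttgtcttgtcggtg
Snhg1: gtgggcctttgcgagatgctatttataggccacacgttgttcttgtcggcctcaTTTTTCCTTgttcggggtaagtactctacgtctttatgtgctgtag
Snhg3: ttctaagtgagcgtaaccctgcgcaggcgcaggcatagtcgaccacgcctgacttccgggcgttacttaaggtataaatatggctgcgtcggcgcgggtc
These lie at chr4:132308628-132308727 on the plus strand, chr9:88522848-88522947 on the minus strand, chr19:8723437-8723536 on the plus strand and chr4:132353637-132353736 on the minus strand. TATAA on the gene strand was present in the 50 bases before the start of 3 of 13 hosts (23.1%, namely Snhg5, Snhg7 and Snhg12) and in 5.89% of 27025 genes with a listed start. On either strand, which counts the gene-strand matches again, it was present in 4 of 13 (30.8%) and in 7.5% of all. The C or T run was searched on the gene strand only and was present in 8 of 13 (61.5%) and in 27.6% of all. The 3 hosts with both motifs, Snhg12 (0.64 ± 0.32), Snhg7 (0.39 ± 0.33) and Snhg5 (-0.04 ± 0.41), and Snhg3 (0.52 ± 0.26), with neither in these windows, all missed the threshold.

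The gene table placed 75 of the 84 small RNAs inside another gene and 9 outside any, and 62 of the 75 had a host with a probe set of its own. These 62 small RNAs lay in 48 hosts, 11 of which held more than 1, so the pairs are not independent. The small RNA had the lower change in 45 pairs and the higher in 17, and the median difference of changes was -0.33. The median was -0.11 for the small RNAs and 0.35 for the hosts. The changes had the same sign in 29 of 62 pairs, and across pairs, which share arrays and hosts, Pearson's r was 0.002. The gap depended on the scaling: the median difference was -0.16 after quantile scaling and -0.07 after cyclic loess. Only 1 host passed in limma, Chd8 (1.18 ± 0.17, adjusted p = 0.0336), a chromatin remodeller that holds Snord8 (-0.56 ± 0.26).

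**Figure D3:**
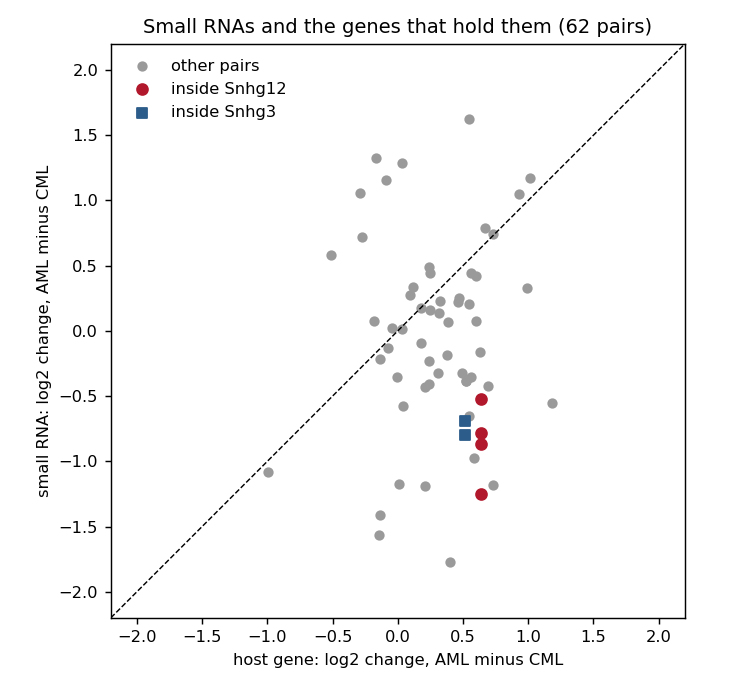
Log2 change (AML minus CML) of each small RNA against that of the gene that holds it, 1 point per pair (62 pairs), with the line of equal change dashed. Most points lie below the line, and the 4 small RNAs inside Snhg12 (circles) and the 2 inside Snhg3 (squares) all do.

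Snhg12 held 4 measured small RNAs. The host read 6.19, 6.66 and 5.86 on CML, against 7.17, 6.26 and 7.20 on AML, a difference of 0.64 ± 0.32 that did not pass in limma (adjusted p = 0.29). Its small RNAs all had the opposite sign by value: Snora44 fell as given above, and Snora16a (-0.87 ± 0.84), Snord99 (-0.78 ± 0.69) and Snora61 (-0.52 ± 0.21) did not pass. Snora61 read 5.76, 6.23 and 6.50 on CML, against 5.79, 5.56 and 5.56 on AML, so AML 1 lay within the CML range. Snora16a and Snord99 were spread widely within the groups, with Snora16a from 3.44 on CML 1 to 6.67 on CML 2. The 4 were thus alike in sign and unequal in how far the groups stood apart, and the gap to the host was not tested.

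**Figure D4:**
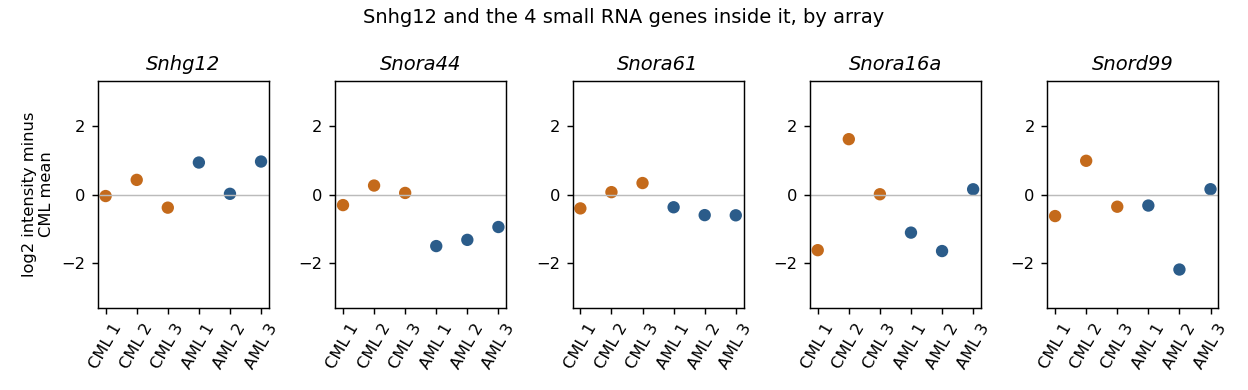
Log2 intensity minus the gene's CML mean on each array for Snhg12 and the 4 small RNA genes inside it, 1 point per array (CML orange, AML blue). Every AML array lies above the lowest CML value of Snhg12, and the groups stand apart only for Snora44.

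Members inside 1 host did not always share a sign. Wdr43, a protein of the U3 particle's processome, differed by 0.73 ± 0.31 and holds Snord53 (-1.18 ± 0.36) and Snord92 (0.74 ± 0.40). Snord92 was dim with overlapping groups, and its change was 0.29 without AML 3. Snord49b, Snord49a and Snord65, all within 2410006H16Rik (0.54 ± 0.34), differed by -0.65 ± 1.03, 0.20 ± 0.60 and 1.63 ± 0.78. With single arrays left out, Snord49b ran from -1.87 to 0.28 and Snord49a from -0.40 to 0.84, so neither has a settled sign. In Rps3a1, which differed by 0.03 ± 0.17, the dim Snord73b read 2.47, 4.18 and 2.62 on CML, against 4.29, 4.30 and 4.56 on AML (1.29 ± 0.45), without overlap. Its neighbour Snord73a stood at 9.61 on CML 1 and between 3.34 and 6.0 on the other 5 arrays. Snord17, in Snx5 (0.40 ± 0.26), stood at 10.55 and 10.19 on CML 2 and CML 3 and between 7.34 and 8.05 on CML 1 and the AML arrays, a difference of -1.77 ± 0.77. These genes and Snord65, Snord49a and Snord49b were picked after their values were seen.

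The 9 small RNAs outside other genes (Rn7sk, Rnu11, Rnu12, Rnu3a, Rpph1, Scarna2, Snord118, Snord13 and Snord89) held 4 with groups that did not overlap, 44.4%, and the 75 inside another gene held 11, 14.7%, beside 31.3% of all genes. Their median absolute log2 change was 0.63, beside 0.43 for those inside and 0.29 over all genes. This split was chosen after the values were seen, and it is a description.

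Small RNA genes varied more between arrays than most genes. The median SD within a group was 0.61 on CML and 0.43 on AML, beside 0.26 and 0.19 over all genes. The larger SD lay on CML for 58 of 99 members, and the median over all genes was larger on CML as well. The median SD was 0.64 and 0.44 for the 69 members that were not dim, and 0.47 and 0.38 for the 30 that were. Members were not compared with genes of like level, here or in the shares below. The 3 CML arrays spanned 2 or more log2 units for 18 members, with CML 1 lowest of the 3 in 12 of them and CML 2 highest in 12. The 3 AML arrays spanned as much for 9 members. Such counts were not made over all genes. Although few passed the threshold, 19 members (19.2%) differed at least 2-fold between group means, beside 7.64% of all genes. Over all 6 arrays, 26 members (26.3%) were highest on CML 2, beside 18% of all genes, and 26 on AML 3, beside 14.7% of all genes. The lowest value lay on CML 1 for 23 members (23.2%, beside 13.5% of all genes), on CML 3 for 24 (24.2%, beside 16.3%) and on AML 2 for 25 (25.3%, beside 12.5%). It lay on AML 1 for 17 (17.2%, beside 21%), on AML 3 for 7 (7.07%, beside 23%) and on CML 2 for 3 (3.03%, beside 13.7%). The median over members was 5.59, 5.98 and 5.52 on CML arrays 1 to 3, against 5.79, 5.33 and 5.85 on AML arrays 1 to 3, so the groups overlapped.

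**Figure D5:**
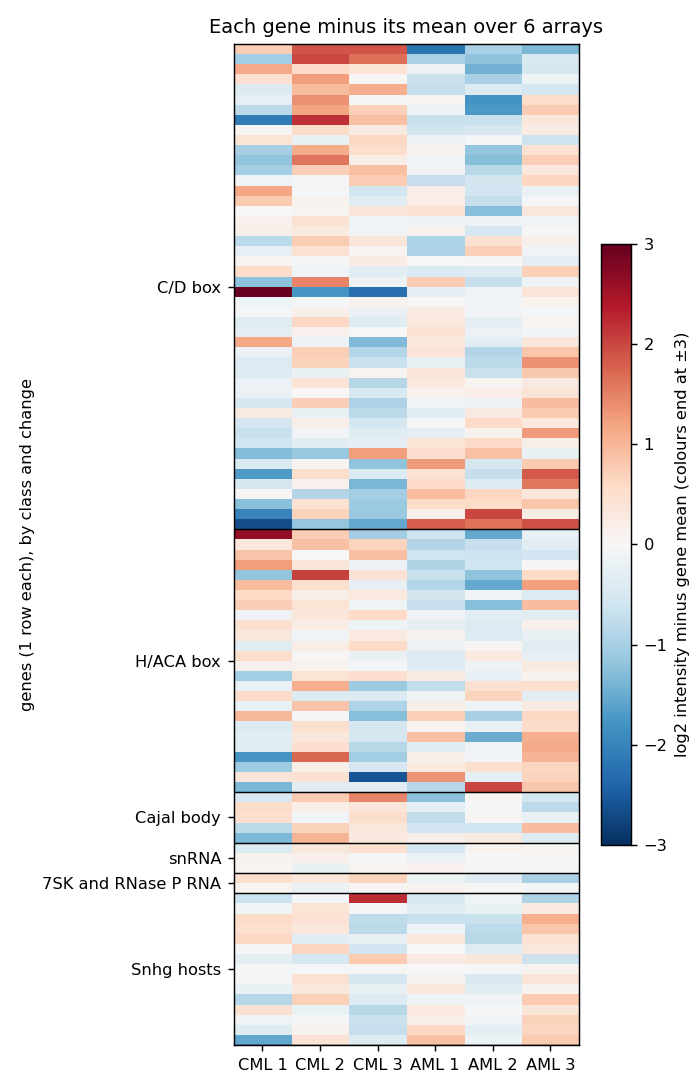
Log2 intensity of each of the 99 genes minus its mean over the 6 arrays, 1 line per gene, ordered by class and then by change, with colours ending at ± 3. Snord13 and Rnu3a, the last and the first line of the C/D box block, split by leukemia, while many other genes split by single arrays, such as CML 1 low and CML 2 high.

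The proteins that build, process and use these RNAs, together with other snoRNA host genes, were taken as 11 lists of 186 genes, of which 168 were measured. By value 150 were higher in AML and 18 lower, with a median change of 0.41 beside -0.11 over all genes. The listed genes were brighter than most, with array medians of 6.06 to 7.19 beside 4.38 to 4.64 over all genes. When only the brighter 50% of all genes was kept, the median change over all genes kept, listed or not, was 0.17. The lists were not compared with genes of like level. Of the 168, 1 was called (0.595%, beside 1.91% of all genes), and 49 had an unadjusted p under 0.05 (29.2%, beside 21.5%). The call was Lsm5, a protein of the ring that binds U6 snRNA, which read 7.30, 7.0 and 6.67 on CML, against 8.18, 8.05 and 8.23 on AML. Lsm5 rose by 1.16 ± 0.19 (adjusted p = 0.0437 in limma), and the call held without only 1 of the 6 arrays, CML 1. The lists called 6 genes after median centring (Imp4, Wdr3, Krr1, Snapc5, Lsm5 and Rbm7) and 0 after quantile scaling or cyclic loess, where 34 and 36 had an unadjusted p under 0.05.

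The listed genes followed single arrays closely. AML 3 held the highest value of 107 of the 168 (63.7%, beside 14.7% of all genes), and CML 3 the lowest of 108 (64.3%, beside 16.3%). CML 3 also had the highest mean of the osteoblast markers (8.93) and AML 3 the lowest (5.82), and the part of this in the lists was not tested. Without CML 3, 138 of 168 were higher by value with a median of 0.28, and without AML 3, 135 of 168 with a median of 0.29. After cyclic loess 118 of 168 were higher, with a median of 0.21.

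For the C/D box particle, 3 of 3 measured proteins were higher by value, with 0 past the threshold in limma and 0 at an unadjusted p under 0.05. Among them were Nop58 (0.60 ± 0.38) and Snu13 (0.78 ± 0.34). For the H/ACA box particle, 4 of 4 were higher by value, again with 0 calls and 0 at an unadjusted p under 0.05, with the pseudouridine synthase Dkc1 at 0.64 ± 0.41 and Nhp2 at 0.79 ± 0.35. Of 10 assembly factors, 10 were higher by value, 0 passed and 4 had an unadjusted p under 0.05 (40%, beside 21.5% of all genes). Znhit6 (1.03 ± 0.23, adjusted p = 0.083 in limma) and Nufip1 (0.78 ± 0.19, adjusted p = 0.0973 in limma) had the lowest p. After cyclic loess 2 of the 3 C/D box proteins and 2 of the 4 H/ACA box proteins were higher by value, and 10 of the 10 assembly factors.

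Of 31 proteins of the U3 particle and the processome that it builds on the ribosomal precursor, 30 were higher by value (25 after cyclic loess), with a median of 0.44. In limma 0 passed and 7 had an unadjusted p under 0.05 (22.6%, beside 21.5% of all genes). Without CML 3 that median was 0.23, and without AML 3 it was 0.28, with 25 of 31 higher. Imp4 read 6.0, 6.06 and 5.60 on CML, against 7.04, 6.68 and 7.01 on AML, a difference of 1.02 ± 0.19 (adjusted p = 0.0527 in limma). Wdr3 differed by 0.94 ± 0.19 (adjusted p = 0.0633 in limma). Mphosph10, a core protein of the U3 particle, was the 1 gene of the list lower by value (-0.05 ± 0.23).

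Medians of several other lists also moved by over 1.5 times without 1 array. Without CML 3 the C/D box proteins were at 0.22 (0.60 with all arrays), the exosome genes at 0.33 (0.56), the 7SK genes at 0.20 (0.35) and the other hosts at 0.05 (0.18). Without AML 3 the C/D box proteins were at 0.34, the H/ACA box proteins at 0.22 (0.48), the assembly factors at 0.28 (0.42), the Cajal body genes at 0.02 (0.20) and the RNase P and MRP proteins at 0.26 (0.40). The Cajal body genes were at 0.41 without CML 2 and 0.40 without AML 1, and the RNase P and MRP proteins at 0.63 without AML 2.

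Among 11 Cajal body and SMN complex genes, 9 were higher by value (7 after cyclic loess) and 0 passed. An unadjusted p under 0.05 was held by 3 (27.3%, beside 21.5% of all genes). Of these 3, Smn1, which loads proteins onto snRNAs, was at 1.33 ± 0.41 and Zpr1 at 0.85 ± 0.21. The remaining gene of these 3, Gemin8, was dim and lower by value without overlap (-0.36 ± 0.14). Of 25 genes of snRNA transcription and end processing, 23 were higher (19 after cyclic loess), 0 passed and 10 had an unadjusted p under 0.05 (40%). Snapc5, a subunit of the complex that binds snRNA promoters, was at 1.40 ± 0.27 (adjusted p = 0.0594 in limma). Tgs1, which adds methyl groups to the cap of snRNAs and U3, differed by 1.15 ± 0.30. Of 29 spliceosomal snRNP proteins, 27 were higher (21 after cyclic loess) and 1 passed, Lsm5, while 10 had an unadjusted p under 0.05 (34.5%). Prpf6, a protein of the tri-snRNP, had the largest difference of that list, -1.25 ± 0.49, without overlap (adjusted p = 0.213 in limma). Of 19 exosome and trimming genes, 18 were higher (16 after cyclic loess), 0 passed and 7 had an unadjusted p under 0.05 (36.8%). Rbm7 was at 0.74 ± 0.15 (adjusted p = 0.0659 in limma) and Zcchc7 at 0.65 ± 0.18.

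Among 7 genes of the 7SK particle, 6 were higher by value, 0 passed and 2 had an unadjusted p under 0.05 (28.6%, beside 21.5% of all genes). The 2 with the lowest p had opposite signs. Cdk9, the kinase of P-TEFb, differed by 0.45 ± 0.15 and its inhibitor Hexim2, which was dim, by -0.62 ± 0.21. After quantile scaling or cyclic loess 4 of the 7 were higher. Of 11 proteins of RNase P and RNase MRP, 9 were higher by value (8 after cyclic loess), 0 passed and 3 had an unadjusted p under 0.05 (27.3%). Rpp30 was at 1.18 ± 0.31 and Rpp21 at 0.76 ± 0.22, while Rpph1 was lower by value. Of 20 other host genes, 13 were higher, 0 passed and 3 had an unadjusted p under 0.05 (15%), but after cyclic loess 5 of 20 were higher. In Eif4a1 (-0.70 ± 0.24) and Eif4a2 (-1.03 ± 0.38), other probe sets gave 0.65 and 0.94, so no direction is given for either.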

How the data were processed

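RNA from sorted cells was isolated on small-sample columns, and amplified cRNA was labelled for Affymetrix arrays, per the labels' protocols. Limma and lumi are named without versions, per the submitters' processing notes. The handling of background, summarisation and normalization was not given in the sources used here. In the table, the deposited values are intensities on a linear scale, as judged from the values. No detection p-value was used, so "dim" means a mean log2 level below the mean of the array medians, which held for 30 of 99 members. The members and lists were chosen with earlier results of these data known.

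Of 39721 probe sets, 23521 name 1 gene, 1814 several and 14386 none in the platform annotation, and the first kind gave 22180 genes, with the probe set of the highest mean standing for a gene. The probe sets with several symbols were fitted apart and are printed only where the text says so. All 99 members were found in the RefSeq gene table (GRCm38.p6). A host is a gene whose span in that table contains the small RNA. The table has no strand, so hosts were found without it, although a match on the same strand had been planned. Log2 of intensity, with a floor of 1, went into lmFit and eBayes of limma 3.58.1 in R 4.3.3 (AML minus CML, two-sided, no covariate, 4 residual degrees of freedom per gene), with Benjamini-Hochberg adjustment over all 22180 genes and a threshold of 0.05. Errors of changes are moderated standard errors, and intervals are 95%. Changes of classes, lists and hosts are described by counts and medians, with no test.

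Named genes were members past the threshold, the 3 in each class and direction with the lowest unadjusted p, a set of well-known genes (18 of 33 were measured), and from each list those past the threshold or the 2 with the lowest p. Genes named beyond this rule are listed by host or picked after their values were seen. The alternatives were quantile, median and cyclic loess scaling, the upper 50% or 70% of genes by level, probe sets averaged per gene or kept apart, the trend and robust options of eBayes, array weights, an adjusted p under 0.10, the replicate number as a block and leaving out each array. Those for the lists of proteins and other hosts were chosen after seeing the data. The fit was tested on simulated data with independent noise for each gene and array. Those data held no shift shared by the genes of an array, so that test does not bear on the calls given here. Plots used matplotlib 3.10.9 (Python 3.11.15).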

Additional observations from a re-analysis of the deposited data

How the results depend on the processing

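No limit of detection was used, and 3 arrays per group limit the precision. The count of members called higher (1) became 2 after median centring, 3 at an adjusted p under 0.10, 0 with the replicate block and 0 to 3 when single arrays were left out. The count called lower (2) became 1 after cyclic loess, 1 with the trend and robust options, 3 with array weights, 0 with the replicate block, 4 at an adjusted p under 0.10 and 0 to 4 when single arrays were left out. The replicate block also left 0 genes of the whole table past the threshold in limma, with 19 members at an unadjusted p under 0.05. The sample titles do not say what the replicate numbers stand for. The deviations of same-numbered arrays correlated at 0.24, -0.30 and -0.25, and those of differently numbered arrays at -0.28 to 0.47. With 3 arrays per group these values cannot show whether same-numbered arrays belong together. Over all genes the calls were 405 higher and 18 lower, and 87 and 6 after quantile scaling, 874 and 22 after median centring, and 61 and 3 after cyclic loess. The median of all genes moved from -0.11 to -0.03, 0.04 and -0.0071 in these. The median of the snRNA genes was 0.0065 after median centring and -0.32 after cyclic loess, and that of Rn7sk and Rpph1 was -0.68 after cyclic loess. The signs of these named genes turned. After quantile scaling Rnu12 was -0.25 and Snhg1 -0.16, and after cyclic loess Rnu12 was -0.32, Snhg1 -0.32, Rn7sk -0.15 and Snhg11 0.026. After median centring Rnu5g was 0.0065, Snhg5 0.11 and Snhg11 0.14, and with array weights Snhg11 was 0.069. Other probe sets gave 0.65 for Eif4a1 and 0.94 for Eif4a2. With single arrays left out, the change ran from -0.085 to 0.065 for Rnu12, -0.20 to 0.28 for Snhg1, -0.26 to 0.39 for Snhg11, -0.27 to 0.37 for Snhg5, -0.032 to 0.096 for Rn7sk, -0.65 to 0.54 for Scarna6, -0.75 to 0.13 for Snhg4 and -0.019 to 0.069 for Snhg14. The cause of these shifts was not tested. Under the alternatives tried, 143 counts and medians stayed equal or close to the values given above, with medians judged by the spread between arrays. Of the rest, 12 counts were smaller, 6 were larger and 3 medians moved further. The spread was 0.27 for all members, 0.50 for C/D box genes and 0.40 for host genes, larger than these medians themselves. Such a median could turn in sign and still count as close, so this tally cannot show that a direction is stable. For the named genes, 753 values kept their sign and side of the threshold, 30 turned in sign, 27 lost the threshold and 14 gained it. Only named genes past the threshold in the main fit could lose it. These were Snord13, which kept it in 11 of 15 alternatives, Rnu3a (8 of 15), Snora44 (8 of 15) and Lsm5 (6 of 15).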

Other observations

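Probe sets that name several genes gave 36 distinct value patterns that include a member's symbol, of which 0 passed in limma over all 39721 probe sets and 6 had an unadjusted p under 0.05, and 11 were higher and 25 lower in AML by value. A probe set of Snord14a and its host Rps13 read 5.07, 4.30 and 3.69 on CML arrays 1 to 3, against 7.08, 6.28 and 6.37 on AML arrays 1 to 3, a difference of 2.23 ± 0.40 without overlap (adjusted p = 0.0756). A probe set of Snora36b and Mir664 read 3.35, 3.17 and 3.22 on CML, against 2.30, 2.63 and 2.40 on AML, a difference of -0.80 ± 0.15 (adjusted p = 0.0831), also without overlap.

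CML 1 stood apart in several of these. A probe set of Snord1b and Snord1c read 5.91 on CML 1 and between 2.38 and 2.96 on the other arrays, while the probe set of Snord1b alone read 2.64 on CML 1. One of Rnu7 and Grcc10 read 5.73 on CML 1 and between 2.65 and 2.98 on the other arrays. Snord73a, measured alone, likewise stood at 9.61 on CML 1. The source of these single high values was not tested.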
